A study of Mus musculus with 2 samples.

Results

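The genes described here are the 17 synaptotagmins Syt1 to Syt17 and 29 other genes of presynaptic vesicle release, 46 of the 21631 protein-coding genes that RefSeq places on the 20 mouse chromosomes with peaks. They were named by family, and their Suz12 peaks are those in the wild-type 72 h peak list that overlap the gene or lie within 2.5 kb of it. The genes were chosen by family name with earlier results on the positions and scores of these peaks known, so peak positions and scores at these genes are given as a description, with no test. Suz12 belongs to the core of the Polycomb complex PRC2, a histone methyltransferase whose mark on histone H3 is found at silenced genes. Its binding was mapped by ChIP-seq, which sequences the DNA pulled down with an antibody against the protein, and the series asks by its title how silencing relates to PRC2 at CpG islands.

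The peak list comes from 1 library of wild-type E14 cells, a mouse embryonic stem cell line, grown in serum and then differentiated for 72 h, with 1 µM all-trans-retinoic acid added and the cytokine LIF removed. The other library of the series comes from Suz12 knockout (Suz12-/-) cells in serum at 0 h, made with the same antibody, and was not analysed here. With 1 library no replicate error can be given. The list holds 3373 peaks and no read counts. Depth is therefore unknown, and where no peak is listed, weaker Suz12 signal was not detectable here. No expression was measured in these files, so the neuronal state of the cells could not be checked.

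Neurons release transmitter when calcium enters the terminal and vesicles fuse with the membrane. Synaptotagmins are vesicle or membrane proteins with paired C2 domains, several of which bind calcium and trigger fusion. The SNARE proteins syntaxin, SNAP-25 and synaptobrevin (Vamp) drive the fusion itself, complexins clamp and assist them, and RIM, Munc13 and Rab3 proteins dock and prime vesicles at the active zone. Many of these genes serve mainly neurons and other secretory cells, and in embryonic stem cells PRC2 is known to sit at CpG-rich starts of lineage genes.

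To show the DNA under and outside the peaks, 8 promoter windows from RefSeq (GRCm38.p6) are printed on the gene's strand, each from 250 bases before to 50 bases after a listed start. Capitals mark every CpG dinucleotide. Both listed starts of Syt2 are shown because a separate peak covers each, Syt6 because it holds the highest score among the 46 genes, Syt9 because it has the most CpG, and Sv2c as the highest-scoring other release gene with a listed start. Syt14 and Unc13a are shown as CpG-rich starts without a peak and Syt8 as the synaptotagmin with the fewest CpG at its outermost start, also without a peak.
Syt2 start 1 (chr1:134646362-134646661, plus strand): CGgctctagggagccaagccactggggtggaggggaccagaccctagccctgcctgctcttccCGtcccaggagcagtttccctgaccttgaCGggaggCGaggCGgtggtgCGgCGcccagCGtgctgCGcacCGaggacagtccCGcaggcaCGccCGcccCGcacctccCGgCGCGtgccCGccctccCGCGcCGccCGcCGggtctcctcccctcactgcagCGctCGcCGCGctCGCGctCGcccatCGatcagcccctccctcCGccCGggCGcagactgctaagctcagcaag
Syt2 start 2 (chr1:134709050-134709349, plus strand): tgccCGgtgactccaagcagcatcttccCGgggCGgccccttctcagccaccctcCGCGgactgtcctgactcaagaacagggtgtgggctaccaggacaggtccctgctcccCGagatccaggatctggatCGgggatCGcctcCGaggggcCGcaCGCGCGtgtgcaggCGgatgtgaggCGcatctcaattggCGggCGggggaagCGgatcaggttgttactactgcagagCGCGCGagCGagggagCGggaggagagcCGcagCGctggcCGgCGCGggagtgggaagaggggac
Syt6 (chr3:103574995-103575294, plus strand): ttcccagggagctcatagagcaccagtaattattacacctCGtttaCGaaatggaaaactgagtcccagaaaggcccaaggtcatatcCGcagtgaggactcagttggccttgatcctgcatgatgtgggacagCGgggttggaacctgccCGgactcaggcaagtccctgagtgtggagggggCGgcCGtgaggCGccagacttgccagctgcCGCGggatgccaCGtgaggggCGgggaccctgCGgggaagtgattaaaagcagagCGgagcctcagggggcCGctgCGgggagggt
Syt9 (chr7:107370540-107370839, plus strand): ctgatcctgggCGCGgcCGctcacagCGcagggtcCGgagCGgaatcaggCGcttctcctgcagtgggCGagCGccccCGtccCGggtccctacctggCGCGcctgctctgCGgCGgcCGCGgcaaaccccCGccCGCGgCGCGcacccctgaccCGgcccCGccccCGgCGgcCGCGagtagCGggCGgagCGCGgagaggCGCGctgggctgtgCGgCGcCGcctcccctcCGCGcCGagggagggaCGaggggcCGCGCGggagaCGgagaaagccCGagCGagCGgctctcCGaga
Syt14 (chr1:193035726-193036025, minus strand): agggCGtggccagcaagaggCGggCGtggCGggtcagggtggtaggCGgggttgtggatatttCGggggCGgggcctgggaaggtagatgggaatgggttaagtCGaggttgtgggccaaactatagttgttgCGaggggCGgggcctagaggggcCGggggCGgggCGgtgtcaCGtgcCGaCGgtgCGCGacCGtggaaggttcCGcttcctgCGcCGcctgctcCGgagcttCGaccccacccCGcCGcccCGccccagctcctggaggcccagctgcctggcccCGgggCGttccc
Syt8 (chr7:142434600-142434899, plus strand): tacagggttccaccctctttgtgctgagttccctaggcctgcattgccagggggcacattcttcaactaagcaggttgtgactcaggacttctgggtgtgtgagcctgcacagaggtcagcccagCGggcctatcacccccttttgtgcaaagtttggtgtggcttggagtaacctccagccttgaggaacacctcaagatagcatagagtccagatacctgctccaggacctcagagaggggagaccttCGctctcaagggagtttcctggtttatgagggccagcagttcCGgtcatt
Sv2c (chr13:96132528-96132827, minus strand): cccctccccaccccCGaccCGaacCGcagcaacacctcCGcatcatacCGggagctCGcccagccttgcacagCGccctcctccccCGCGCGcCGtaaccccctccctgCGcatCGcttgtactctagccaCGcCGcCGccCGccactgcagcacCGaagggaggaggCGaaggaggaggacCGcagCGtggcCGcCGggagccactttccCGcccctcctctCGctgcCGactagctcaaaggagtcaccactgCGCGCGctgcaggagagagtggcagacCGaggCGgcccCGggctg
Unc13a (chr8:71671708-71672007, minus strand): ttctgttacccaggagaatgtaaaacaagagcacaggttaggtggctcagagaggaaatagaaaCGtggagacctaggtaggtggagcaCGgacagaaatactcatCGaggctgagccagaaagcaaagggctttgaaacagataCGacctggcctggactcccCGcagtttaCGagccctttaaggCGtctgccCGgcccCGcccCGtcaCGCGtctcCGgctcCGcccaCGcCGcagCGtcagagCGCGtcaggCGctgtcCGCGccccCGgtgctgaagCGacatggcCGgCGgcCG

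Suz12 peaks lay at 21 of the 46 genes (45.7%, exact 95% interval 30.9 to 61), and the same rule called 13.1% of all protein-coding genes. Among synaptotagmins the count was 10 of 17 (58.8%, 32.9 to 81.6), and among the other release genes 11 of 29 (37.9%, 20.7 to 57.7). These intervals overlap, cover counting error only and treat genes as independent. The difference between the families was not tested, since both were chosen with the peaks known. All 21 genes had a peak within 2.5 kb of a gene end, a rule that called 11.7% of protein-coding genes. None of the 46 had an interior peak only (interval up to 7.71%, which includes the 1.35% of protein-coding genes that did). The 3 genes with an additional interior peak were Syt2, Rims1 and Nrxn2 (6.52%, 1.37 to 17.9, an interval that includes the 2.23% of protein-coding genes). Each is longer than 100 kb, a length at which 7.91% of protein-coding genes had an interior peak.

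The members held 28 peaks, of which 12 were at synaptotagmins and 16 at the other release genes. Of the 28, 24 were at a gene end (85.7%, 67.3 to 96), namely 11 of 12 at synaptotagmins and 13 of 16 at the other release genes. Over all protein-coding genes 81.1% of gene and peak pairs were at an end, so the placement at ends is close to that background. The threshold of 2.5 kb separated the genes with a wide margin. Every one of the 21 genes had a peak touching the gene itself, while the nearest peak to a gene without one lay 12564 bp from Unc13a (score 394), 15711 bp from Cplx4 (score 3100) and 28178 bp from Syt3 (score 3100). The other 22 genes without a peak were farther from any, up to Rab3c at 1838422 bp.

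**Figure D1:**
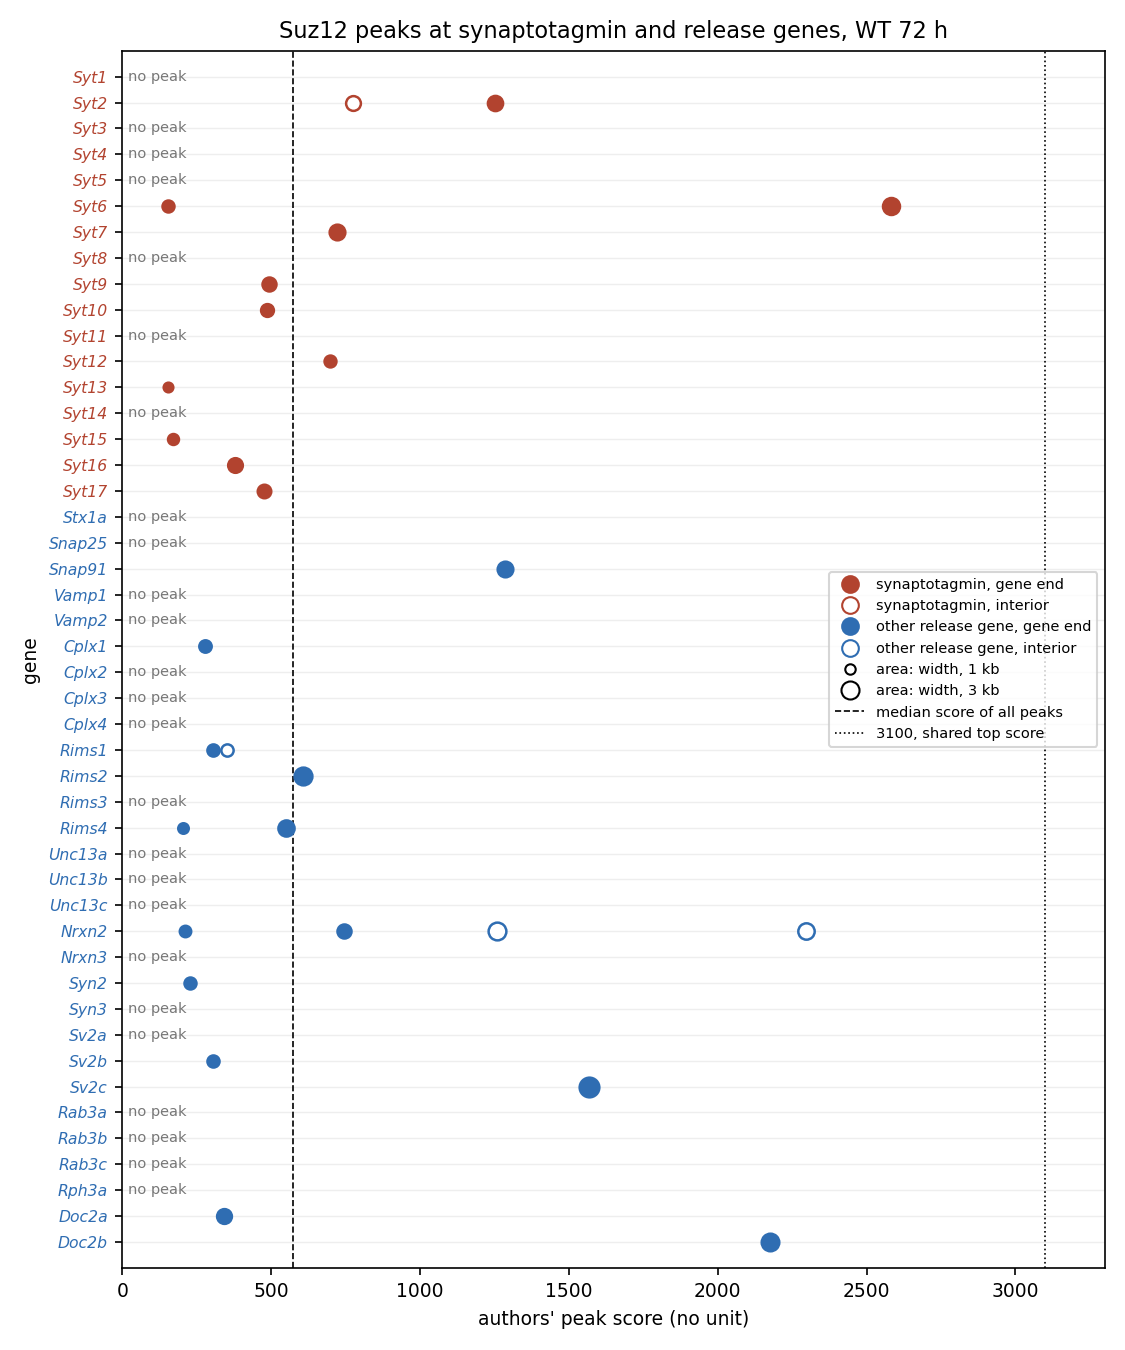
The authors' score (horizontal axis, no unit) of each Suz12 peak is plotted for the 46 genes (vertical axis), with synaptotagmins in red above the other release genes in blue, filled circles for peaks at a gene end, open circles for interior peaks and circle area for peak width. The 28 peaks run from 153 to 2582, none reaches the score of 3100 shared by the top of the list, and 25 genes have no peak.

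The score is the authors' own value per peak, its scale is not stated in the file, and it is used here only to rank peaks within the list. Across the list 355 peaks (10.5%) scored 3100 or more, and 0 of the 46 genes had such a peak (interval up to 7.71%, which includes the 1.71% of protein-coding genes that did). Best scores had a median of 491 among the 21 genes with a peak, 488 in synaptotagmins and 548 in the other release genes, against 663 for all 2833 protein-coding genes with a peak. The median of the list itself is 572. A best score at or above it was held by 4 of 17 synaptotagmins (23.5%, 6.81 to 49.9) and 5 of 29 other release genes (17.2%, 5.85 to 35.8). Together this is 9 of 46 (19.6%, 9.36 to 33.9). Of all protein-coding genes 7.24% had one, a share that both family intervals include and the pooled interval does not. No test was made of this, since the genes were chosen with the scores known.

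The best peak per gene had a median of 1974 bp over the 21 genes, 1739 bp in synaptotagmins and 2249 bp in the other release genes, against 1981 bp for all protein-coding genes with a peak. No member peak was wider than 5 kb (0 of 28, interval up to 12.3%, which includes the 6.61% of all 3373 peaks that were). The widest, 3571 bp, lay at Sv2c.

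Syt1, Syt2 and Syt9 are the synaptotagmins that act as calcium sensors of fast release. Of these, 2 of 3 had a peak, beside 13.1% of protein-coding genes. Syt2, the sensor of many hindbrain and spinal cord synapses, had a peak of 2126 bp with score 1250.5 over its outermost start (chr1:134645865-134647990). A second peak of 2006 bp with score 775 lay 42948 bp inside the other end of the gene (chr1:134708196-134710201). This interior peak covered the second listed start of Syt2, so both windows printed above for this gene lie under a Suz12 peak. They hold 34 and 28 CpG in 300 bases. Syt9 had a peak of 1796 bp with score 491 at its start (chr7:107370045-107371840), over a window with 49 CpG. Syt1, the main sensor of forebrain synapses, had no peak, and its nearest lay 1224322 bp away. The windows at its listed starts hold 8 and 6 CpG.

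Of the disulfide-linked synaptotagmins Syt3, Syt5, Syt6 and Syt10, 2 of 4 had a peak, beside 13.1% of protein-coding genes. Syt6 carried the highest score of the family, 2582, in a peak of 2654 bp (chr3:103574560-103577213) that covered all 3 of its listed starts. It ranked at the 86.8th percentile of the list by score. A second, weak peak of 1318 bp with score 153 lay 139 bp upstream of it and 825 bp beyond the gene (chr3:103573103-103574420). Syt10, a sensor known from olfactory bulb neurons, had a peak of 1505 bp with score 486 (chr15:89841123-89842627). Syt3 and Syt5 had none.

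Syt7, a slow sensor with high calcium affinity, had a peak of 2260 bp with score 722 (chr19:10388529-10390788). Of the 8 synaptotagmins that are not known to bind calcium, 4 had a peak, beside 13.1% of protein-coding genes. The 4 were Syt12 (1299 bp, score 697, chr19:4476101-4477399), Syt13 (851 bp, score 153, chr2:92914825-92915675), Syt15 (1100 bp, score 168, chr14:34219380-34220479) and Syt16 (1974 bp, score 377, chr12:73996691-73998664). The peak at Syt13 was the narrowest of the 28 and its score lay at the 0.6th percentile of the list. Syt4, Syt8, Syt11 and Syt14 had none. Syt17, a more distant relative, had a peak of 1682 bp with score 475 (chr7:118447255-118448936). Both the calcium-binding synaptotagmins and the others thus included genes with and genes without a peak.

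In the group of SNARE genes and Snap91, 1 of 5 genes had a peak (20%, 0.505 to 71.6), a share that cannot be told from the 13.1% of protein-coding genes. Stx1a (syntaxin 1A), Snap25, Vamp1 and Vamp2 had none, and Snap91 had one. Snap91 encodes AP180, a clathrin adaptor that retrieves vesicle membrane and is no SNARE. Its peak was 2249 bp wide with score 1286 (chr9:86878952-86881200). Stx1a lay 35685 bp from the nearest peak, Vamp2 133625 bp, Vamp1 217201 bp and Snap25 331662 bp. Of the 4 complexin genes, Cplx1 alone had a peak, of 1410 bp with score 278 (chr5:108549375-108550784). As a share this is 25% (0.631 to 80.6), an interval that includes the 13.1% of protein-coding genes. Cplx2, the other main complexin of brain, and Cplx3 and Cplx4 of retinal synapses had none.

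Among active zone genes, 3 of 4 RIM genes (75%, 19.4 to 99.4) and 0 of 3 Munc13 genes (interval up to 70.8%) had a peak. The same rule called 13.1% of protein-coding genes. The 2 intervals overlap widely, and the difference in count was not tested. RIM proteins tether vesicles and calcium channels. Rims1 had a peak of 1361 bp with score 305 at its start (chr1:22805332-22806692) and an interior peak of 1380 bp with score 350.3 (chr1:22532971-22534350), which covered no listed start. Rims2 had a peak of 2914 bp with score 607 (chr15:39196514-39199427). Rims4, a short form that keeps only part of the RIM protein, had a peak of 2402 bp with score 548 at 1 end (chr2:163917635-163920036) and a weak peak of score 203 lying 772 bp beyond the other end (chr2:163857971-163858984). This weak peak is also within 2.5 kb of an end of the neighbouring potassium channel gene Kcnk15. Rims3 had none. Unc13a, Unc13b and Unc13c encode the priming factors Munc13-1, Munc13-2 and Munc13-3, and none had a peak.

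Nrxn2 held more peaks than any other of the 46 genes. Neurexins are presynaptic adhesion proteins, made as long and short forms from separate promoters. The peak at the lower end of Nrxn2 was 1198 bp wide with a score of 210.2 (chr19:6418405-6419602). Its highest score, 2295, belonged to an interior peak of 2472 bp lying 8285 bp inside the gene (chr19:6427041-6429512). A further interior peak of 2904 bp had score 1258 (chr19:6497338-6500241), and a peak of 1812 bp with score 745 lay 526 bp inside the upper end (chr19:6530880-6532691). Thus at Nrxn2 both interior peaks scored above both end peaks. Nrxn3, a gene of 1612 kb and the longest of the set, had no peak, and its nearest lay 1421895 bp away.

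Vesicle protein families were split between members with and without a peak. A peak was held by 1 of 2 synapsin genes (50%, 1.26 to 98.7) and 2 of 3 SV2 genes (66.7%, 9.43 to 99.2). The Rab3, rabphilin and Doc2 genes had one at 2 of 6 (33.3%, 4.33 to 77.7). Each of these intervals includes the 13.1% of protein-coding genes with a peak. Synapsins tether vesicles in reserve: Syn2 had a peak of 1323 bp with score 228 (chr6:115134662-115135984) and Syn3 none. SV2 proteins are transporter-like glycoproteins of the vesicle. Sv2c had a peak with score 1568 (chr13:96130758-96134328) and Sv2b one of 1342 bp with score 303 (chr7:75308016-75309357), while the widely expressed Sv2a had none. Rab3a, Rab3b and Rab3c, the GTPases of vesicle docking, and their effector gene Rph3a (rabphilin) had none. Both Doc2 genes, which encode calcium sensors of spontaneous and asynchronous release, had one. Doc2b had a peak of 2845 bp with score 2174 (chr11:75794088-75796932). The peak of Doc2a, 2012 bp with score 341 (chr7:126847197-126849208), began 214 bp inside this short gene and is also within 2.5 kb of an end of Ino80e, a chromatin remodeller subunit gene.

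**Figure D2:**
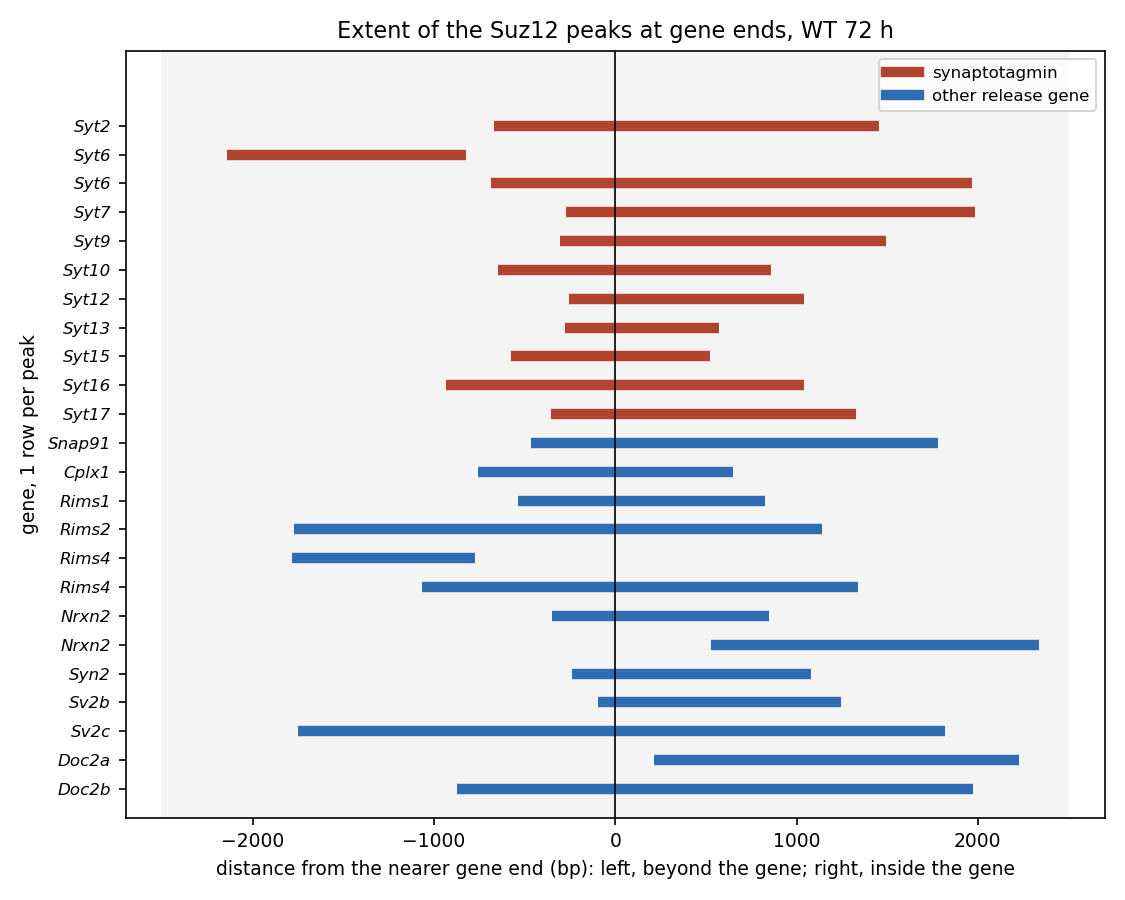
The extent of the 24 peaks at gene ends is drawn around the nearer end of the gene (horizontal axis in bp, with the part beyond the gene on the left and the part inside on the right), 1 row per peak, synaptotagmins in red and other release genes in blue, and the window of 2.5 kb shaded. Of the 24 peaks, 20 cross the end, 2 lie wholly beyond the gene and 2 wholly inside it.

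Peaks at the ends crossed them and reached farther into the gene than away from it. Of the 24 end peaks, 20 covered the end. More of the peak lay inside than beyond the gene in 9 of 10 such peaks at synaptotagmins and in 8 of 10 at the other release genes, together 17 of 20 (85%, 62.1 to 96.8). Over all protein-coding genes the share was 85.3% of 1749 pairs. The exceptions were Syt15, Cplx1 and Rims2. RefSeq lists a start of transcription for 31 of the 46 genes in the table used here. At these, all 13 end peaks lay on the start side (interval 75.3 to 100%) and 12 of the 13 covered a listed start, the remaining one being the weak upstream peak of Syt6. For protein-coding genes in general, 80.5% of 1809 such pairs were on the start side, and 77.4% of those covered a listed start. The first covered start had between 95 and 1751 bp of peak upstream of it, with a median of 715 bp, and between 433 and 1968 bp downstream, with a median of 1066 bp.

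Some of these peaks lay near ends of genes that do not encode proteins. Ends of Gm35886 at Rims4, Gm14965 and Gm52381 at Nrxn2, Gm17733 at Syn2, 1500012K07Rik at Sv2b, Gm29543 at Sv2c and Gm12339 at Doc2b lay within 2.5 kb of the peak. A peak list cannot say which of the genes at such a place the Suz12 belongs to.

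**Figure D3:**
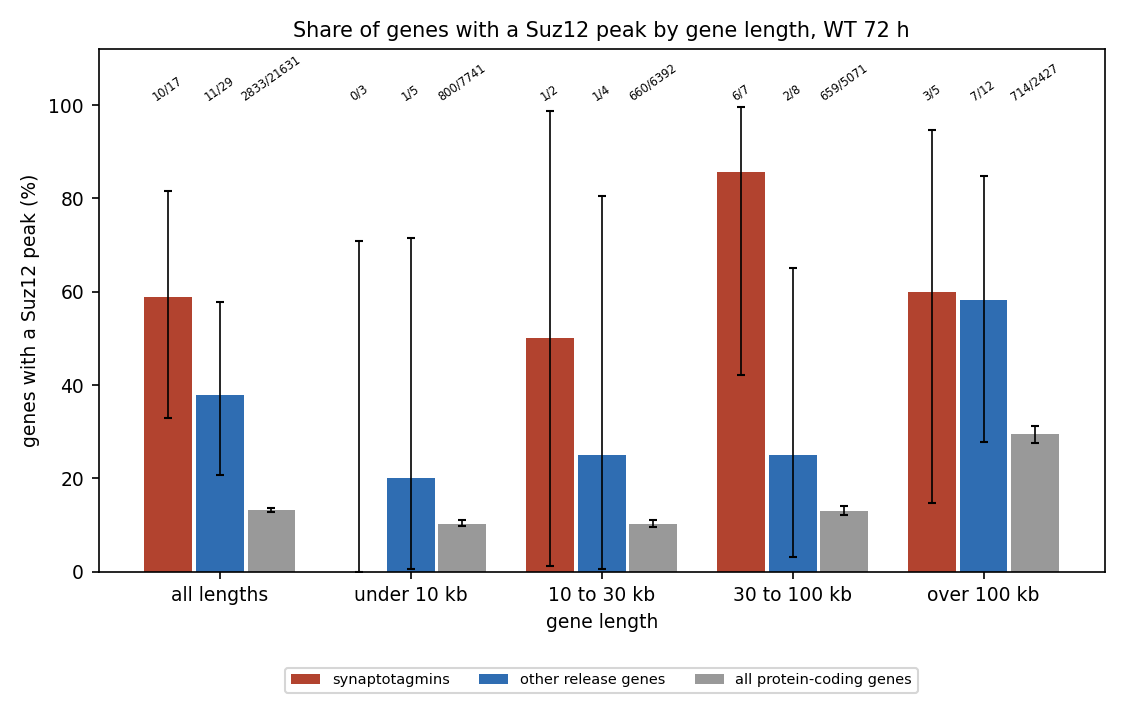
Bars give the percentage of genes with a Suz12 peak (vertical axis) in synaptotagmins, other release genes and all protein-coding genes, for all lengths together and in 4 classes of gene length (horizontal axis). Error lines are exact 95% binomial intervals and the numbers above are genes with a peak over genes in the class. Among genes over 100 kb the share is 29.4% for all protein-coding genes, 60% for synaptotagmins and 58.3% for other release genes.

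Length was compared because long genes can hold more peaks and the release genes are long. The 46 genes had a median length of 66.1 kb, against 17.3 kb for all protein-coding genes. In the class over 100 kb, 3 of 5 synaptotagmins and 7 of 12 other release genes had a peak, together 10 of 17 (58.8%, 32.9 to 81.6), beside 29.4% of all protein-coding genes of that length. Between 30 and 100 kb the counts were 6 of 7 and 2 of 8, together 8 of 15 (53.3%, 26.6 to 78.7), beside 13% of protein-coding genes. Between 10 and 30 kb, 2 of 6 had one (33.3%, 4.33 to 77.7, an interval that includes the 10.3% of protein-coding genes). Under 10 kb none of the 3 synaptotagmins and 1 of 5 other release genes had a peak. Together this is 1 of 8 (12.5%, 0.316 to 52.7), close to the 10.3% of protein-coding genes of that length. Those without one were Syt4, Syt5, Syt8, Vamp1, Vamp2, Cplx3 and Rab3a.

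CpG content at the start was the property that the choice of genes did not use. A window was called CpG-rich when its CpG observed over expected ratio was at least 0.6 and its GC content at least 50%, criteria taken from the usual definition of a CpG island and applied to 300 bases. Taking the outermost listed start of each of the 31 genes with one, the 12 genes with a peak at an end had a median of 29 CpG per window, from 10 to 49, and the 19 without had a median of 11, from 2 to 29. The ratio had a median of 0.79 (from 0.52 to 1.06) with a peak and 0.51 (from 0.12 to 0.96) without. The ranges overlap. Over the 17274 protein-coding genes with a listed start the same medians were 20 CpG and a ratio of 0.70 with a peak, against 12 CpG and a ratio of 0.56 without.

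Peaks were present at 9 of 16 members with a CpG-rich start (56.2%, 29.9 to 80.2), where 14.5% of protein-coding genes with such a start had one. At the remaining starts 3 of 15 members had one (20%, 4.33 to 48.1), beside 7.79% of protein-coding genes. By family, a peak was found at 4 of 6 synaptotagmins and 5 of 10 other release genes with a CpG-rich start, and at 2 of 5 and 1 of 10 without. The genes were chosen with their peaks known, so no test was made and these shares support no difference from the background.

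**Figure D4:**
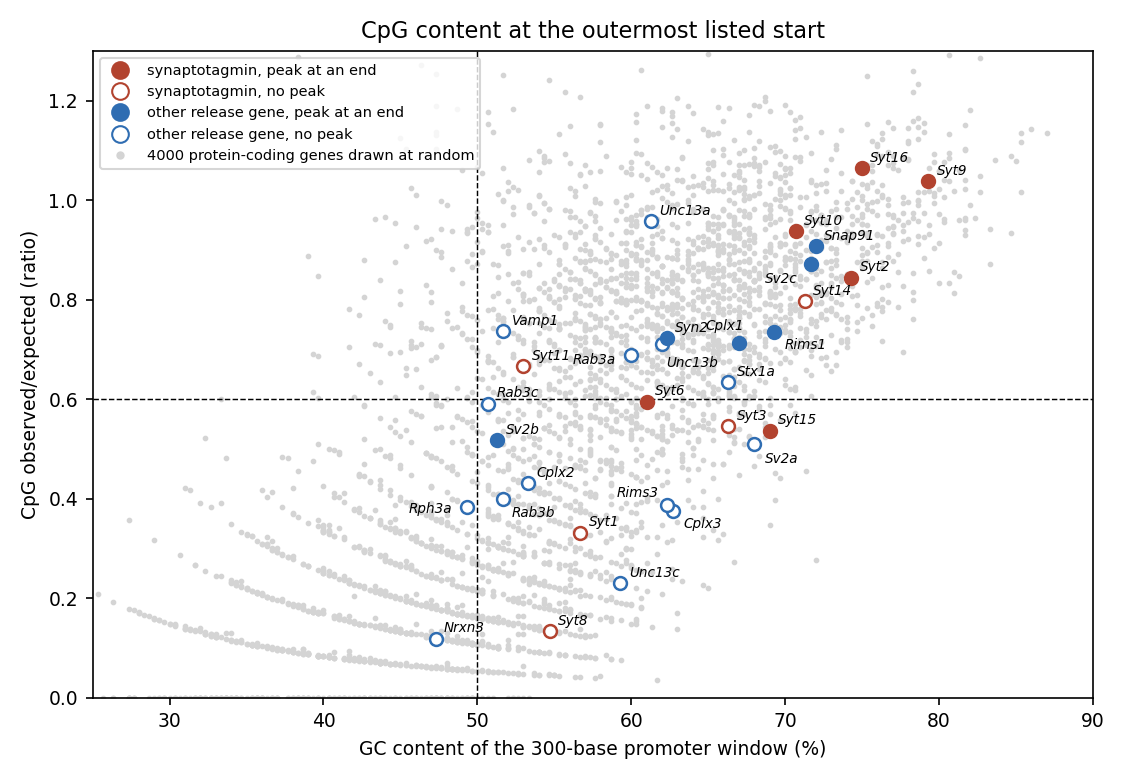
The CpG observed over expected ratio (vertical axis) is plotted against the GC content in percent (horizontal axis) of the 300-base window at the outermost listed start, for 11 synaptotagmins in red and 20 other release genes in blue, filled where a Suz12 peak lies at a gene end. Grey dots are 4000 protein-coding genes drawn at random, the axes are cropped to the range shown, and dashed lines mark 0.6 and 50%. Filled circles lie mostly at the upper right, and Syt6, Syt15 and Sv2b are the filled ones below the line at 0.6.

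The exceptions run both ways. CpG-rich starts without a peak belonged to Syt11, Syt14, Stx1a, Vamp1, Unc13a, Unc13b and Rab3a. Among these, the Syt14 window printed above has 29 CpG and a ratio of 0.80, and the Unc13a window has 27 CpG and a ratio of 0.96. Both exceed the outermost Syt6 window, which has 16 CpG and a ratio of 0.595 under the highest-scoring peak of the family. That window narrowly misses the criteria. Starts 2 and 3 of Syt6, under the same peak, meet them, with 19 CpG each and ratios of 0.626 and 0.602. The outermost starts of Syt15, with 19 CpG and a ratio of 0.54, and Sv2b, with 10 CpG and a ratio of 0.52, also had a peak without meeting the criteria. At the low end, the outermost starts of Syt8 and Nrxn3 had 3 and 2 CpG and no peak. The outermost start in the table is not always at the end of the gene. At Nrxn3 and Unc13b, among others, it lies well inside.

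Other presynaptic genes were read from a list of 100 genes, which shares none with the 46. Of these, 35 had a peak (35%, 25.7 to 45.2), beside 13.1% of protein-coding genes, and their best scores had a median of 609. A peak at an end was held by 29 (29%, 20.4 to 38.9), beside 11.7%, and 6 had an interior peak only. These genes are long as well. The 100 had a median length of 60 kb and the 35 with a peak 184 kb, against 17.3 kb for all protein-coding genes. Of other SNARE genes and their regulators, 1 of 20 had a peak (5%, 0.127 to 24.9), an interval that includes the background of 13.1%. This was Stxbp5l, a relative of tomosyn (score 220), and those without one included Napa, Napb, Napg and Nsf, which take SNARE complexes apart. Synaptotagmin relatives and other C2 proteins had a peak at 7 of 19 (36.8%, 16.3 to 61.6), led by Cadps2 (795), Esyt3 (598), Sytl1 (377) and Cadps (360.2). Esyt1, Esyt2, Dysf and Doc2g had none.

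All 7 genes of presynaptic calcium channels and their subunits had a peak (interval 59 to 100%). Each is longer than 100 kb, a length at which 29.4% of protein-coding genes had one. A peak at an end was held by 5 of the 7 (71.4%, 29 to 96.3), beside 24.1% of protein-coding genes of that length. The other 2 had an interior peak only. Among them the highest scores at an end were those of Cacnb4 (1291), Cacna2d3 (1269.9), Cacna2d1 (1193) and Cacna2d2 (833). Active zone scaffold and adhesion genes had a peak at 11 of 21 (52.4%, 29.8 to 74.3), beside 13.1% of protein-coding genes. At an end 7 of the 21 had one (33.3%, 14.6 to 57, beside 11.7%), and 4 had an interior peak only. The highest scores at an end were those of Nlgn1 (1703), a postsynaptic partner of neurexins, and of Apba2 (618), Ppfia4 (615) and Apba1 (321). Cask, Erc1, Erc2 and Lrrtm2 had none. Transporters that fill vesicles had a peak at 3 of 7 (42.9%, 9.9 to 81.6), an interval that includes the 13.1% of protein-coding genes. These 3 held the top scores of the 100 genes: Slc32a1 for GABA (3100, 8197 bp), Slc18a3 for acetylcholine (3100, 4440 bp) and Slc17a7 for glutamate (1833). The Slc18a3 peak is also within 2.5 kb of an end of Chat. Slc17a6, Slc17a8, Slc18a1 and Slc18a2 had none.

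Other synaptic vesicle proteins had a peak at 3 of 18 genes (16.7%, 3.58 to 41.4), close to the 13.1% of all protein-coding genes. They were Sncb (857), Syngr1 (759) and Rab27a (335), and Rab3d, Rab27b, Dnajc5 and Prrt2 were among those without. Genes of vesicle endocytosis had a peak at 3 of 8 (37.5%, 8.52 to 75.5, an interval that includes 13.1%), namely Sh3gl2 (609), Dnm3 (362) and Amph (156), while Dnm1, Sh3gl3, Bin1 and Itsn1 had none. These lists were likewise written with earlier results of the data known, and the counts are a description.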

How the data were processed

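Suz12 was measured by ChIP-seq in 2 libraries, 1 per group, and the peak list of the wild-type 72 h library was used. Bowtie, MACS and the build GRCm38 (mm10) are named per the submitters' processing notes, and their versions, settings, control library and pooling are not stated there. The deposited file gives each peak's start, end and score as the authors' caller wrote it, and the scale of the score is not stated. The score takes the value 3100 for 325 peaks, so ranks above it carry little information.

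Peaks were placed on the RefSeq gene table of GRCm38.p6 by any overlap with a gene or the 2.5 kb around it, and called at an end when within 2.5 kb of either end, otherwise interior. All 46 symbols and the 100 of the wider list matched. The table holds no strand, so starts came from RefSeq promoter windows, which 31 of the 46 genes have. Shares carry exact (Clopper-Pearson) 95% intervals (Python 3.11.15, scipy 1.17.1), which cover counting error only. Placement and CpG counting were tested on simulated data. Members and lists were chosen with earlier results of these data known. Each member with a peak is given, and of the wider list up to 4 genes per role with the highest score at an end and up to 4 without a peak in alphabetical order. Alternatives were other score thresholds, distances, midpoints, nearest gene and other gene kinds. With 1 library there was no test.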

Additional observations from a re-analysis of the deposited data

How the results depend on the processing

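Of 80 alternative values, 70 stayed within 1.5 times the main value or within its interval, 10 moved and 0 reversed. The 21 genes with a peak were the same 21 at 0, 1 and 5 kb, by peak midpoint and by nearest gene. The score threshold mattered most: at or above the median score 9 genes kept a peak, 4 synaptotagmins and 5 other release genes, each number holding for peaks at an end too, with 12 peaks and a median best score of 1286, by construction. With scores at least double the lowest, Cplx1, Syn2, Syt13 and Syt15 dropped out. When the peak had to cover the gene end, 1 gene (Doc2a) had an interior peak only, against 0 in the main count. Over genes of any kind the background share with a peak was 7.69%. Taking every listed start in place of the outermost one, and splitting by a peak that touches the 300-base window in place of a peak at a gene end, both at once, gave a median CpG ratio of 0.73 with a peak and 0.41 without, against 0.79 and 0.51. No paired analysis was possible because each group has 1 library and only 1 of the libraries was used. No library could be left out for the same reason. Depth limits each absence, since the list gives no reads.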

Other observations

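Letters of known motifs were searched in the same 300-base windows at the outermost listed start, on both strands. GGGCGG, the GC box bound by Sp1 in mammals, was found at 12 of 12 members with a peak at an end and at 13 of 19 without, and in 64.8% and 44.7% of the windows of all protein-coding genes with and without a peak at an end. It contains a CpG and so overlaps the CpG count. Parts of the element bound by REST, a repressor of neuronal genes, include the letters CAGCACC on its left side and the letters GGACAG on its right. The first run was found at 3 of 12 members with a peak (Syt10, Syt15 and Sv2c) and 1 of 19 without (Unc13a), and in 8.98% and 7.03% of the windows of all protein-coding genes. The second run was found at 4 of 12 and 4 of 19, and in 26.1% and 22% of all. Over every listed start of the members, 16 windows were touched by a peak and 30 were not. The first run was in 3 of these 16 and 3 of these 30, and the second in 7 and 7. No difference was tested. A match is a run of letters and not a binding site.

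Interior peaks often lay away from a listed start. Of 429 interior peaks at protein-coding genes with a listed start, 148 (34.5%, 30 to 39.2) covered a start of that gene. Of the members' 4 interior peaks, that of Syt2 covered one and that of Rims1 did not, and the table used here lists no start for Nrxn2. Of genes with a peak, 2 of 10 synaptotagmins and 3 of 11 other release genes had more than 1, together 23.8% (8.22 to 47.2), beside 16.8% of all protein-coding genes with a peak.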
